A study of Mus musculus with 1 sample.

Results

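Imprinted genes were examined on a single expression array of ovarian surface epithelial cells, taken by a list of 40 mouse imprinted genes written for this work. A gene entered when at least 1 probe set, the group of short probes that reports a transcript, carried its symbol and no other. This held for 36 of the 40 genes, with 99 probe sets of the 34945 that had a single symbol. The array measured total RNA of wild-type mice aged 3 months. The sources used here state neither strain nor number of animals, and the source label speaks of mice in the plural. The series design names 3 genotypes, of which the wild type was analysed here as 1 sample. No value has a replicate error, no genotype was compared and no test was made.

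An imprinted gene is transcribed from 1 parental copy, because of DNA methylation that was set on 1 copy in the egg or the sperm and is kept after fertilisation. Such genes lie in domains in which a control region acts on several neighbours, often through a long noncoding RNA. Many restrain or promote growth before birth and are turned down in most tissues afterwards. The array sums both parental copies, so a value says nothing of which copy was transcribed.

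Values are intensities in arbitrary units on a linear scale. A probe set was called above background when it exceeded 46.5 (5.54 on the log2 scale), which is the 95th percentile of 126 background probe sets. These report 112 genes of keratin-associated proteins, bitter taste receptors, and vomeronasal and olfactory receptors. Their median was 13. A gene was called above background when its brightest probe set was. Probe sets differ in affinity, so no gene's level was ranked against that of another gene.

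4 stretches of DNA are shown because they begin members that lie on either side of this limit. They were chosen after the values were seen. The first lies between the starts of Peg3 and Usp29, which are transcribed away from each other, and is written on the Usp29 strand. The others are the 250 bases before the start of Meg3, Nap1l5 and Airn. Sequences are from RefSeq on GRCm38.p6, and capitals mark CpG dinucleotides, the sites of DNA methylation.
Peg3 to Usp29, chr7:6730420-6730582, plus strand: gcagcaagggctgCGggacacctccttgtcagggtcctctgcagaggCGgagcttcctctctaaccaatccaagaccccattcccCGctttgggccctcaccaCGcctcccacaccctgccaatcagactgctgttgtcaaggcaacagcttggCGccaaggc
Meg3, chr12:109540746-109540995, plus strand: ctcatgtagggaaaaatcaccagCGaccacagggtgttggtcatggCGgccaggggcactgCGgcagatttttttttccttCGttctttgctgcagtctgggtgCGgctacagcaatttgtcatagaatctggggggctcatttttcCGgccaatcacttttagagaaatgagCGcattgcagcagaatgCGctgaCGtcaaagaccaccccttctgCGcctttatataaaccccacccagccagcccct
Nap1l5, chr6:58907127-58907376, minus strand: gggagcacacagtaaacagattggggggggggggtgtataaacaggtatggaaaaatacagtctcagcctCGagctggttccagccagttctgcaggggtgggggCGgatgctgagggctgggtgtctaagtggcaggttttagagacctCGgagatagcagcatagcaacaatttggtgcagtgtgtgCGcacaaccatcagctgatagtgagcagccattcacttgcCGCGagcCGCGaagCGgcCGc
Airn, chr17:12741061-12741310, plus strand: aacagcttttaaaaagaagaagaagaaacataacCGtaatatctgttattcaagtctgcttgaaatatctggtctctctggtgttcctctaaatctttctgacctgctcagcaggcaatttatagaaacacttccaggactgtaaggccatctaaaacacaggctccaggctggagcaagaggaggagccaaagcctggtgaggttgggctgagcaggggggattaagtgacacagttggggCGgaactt
These stretches hold 5, 10, 10 and 2 CpG. Peg3, Meg3 and Airn were above background, and Usp29 and Nap1l5 were not.

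Of the 36 measured imprinted genes 24 were above background, or 66.7%, and 12 were not. Among all 18193 named genes 62.8% were above it. A gene with more probe sets passes more easily: 47.3% of all genes with 1 probe set were above background, 71.8% with 2, 82.9% with 3, 89% with 4 to 5 and 94.9% with 6 or more. Members with these numbers passed in 8 of 15, 4 of 7, 3 of 5, 5 of 5 and 4 of 4 cases. The shares of all genes would put 24.5 of the 36 above background. The members' count was therefore near that of the array as a whole. The median level of the members was 7.33 on the log2 scale, beside 7.06 over all named genes. By the mean of a gene's probe sets these medians were 5.81 and 6.09, by the lowest 4.31 and 4.81, and 5.26 and 6.48 without probe sets whose identifiers mark several transcripts or possible cross-hybridisation. In these 3 settings the members' median was the lower one. Of the 36 genes 17 (47.2%) lay more than 3 log2 units, or 8 times, above the limit, beside 33.4% of all genes, and the shares by number of probe sets would give 14.2. With 1 array neither difference can be set against an error.

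**Figure D1:**
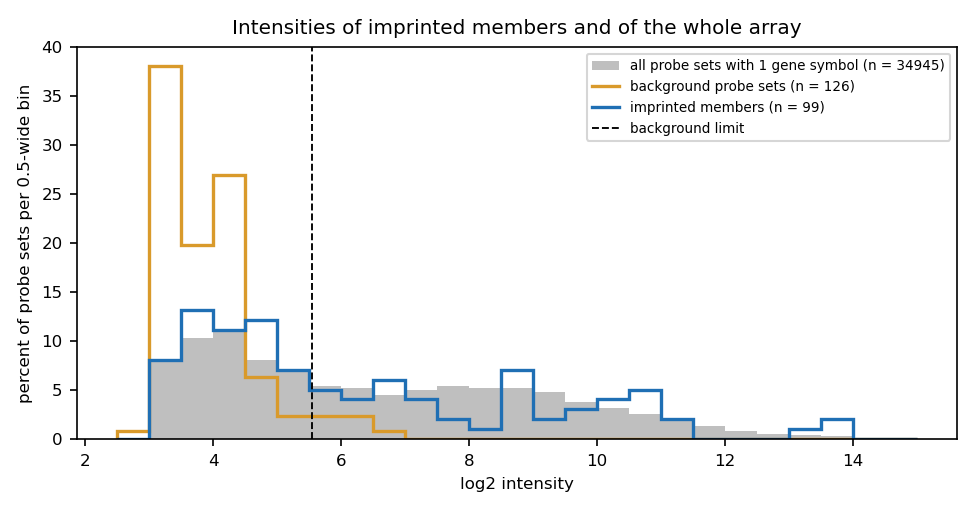
Distribution of log2 intensities as percent of probe sets per bin, for all probe sets with 1 gene symbol (grey), the 126 background probe sets (orange) and the 99 probe sets of imprinted members (blue). The dashed line is the background limit of 5.54, and the members spread over the range of the whole array on both sides of it.

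The list was divided by textbook knowledge of which parental copy is transcribed. Of 17 measured paternally expressed genes 11 were above background, and of 9 measured maternally expressed genes 4 were (Cdkn1c, Slc22a18, Meg3 and Rian). Of 10 measured genes whose imprinting depends on tissue or isoform 9 were, all but the calcitonin receptor gene Calcr. The shares of these classes were, in this order, 64.7%, 44.4% and 90%, beside 62.8% of all named genes. Their medians were 6.83, 5.36 and 9.85 on the log2 scale, beside 7.06 over all named genes. The classes differ in the number of probe sets per gene, and a gene with more passes more easily. These shares and medians were not adjusted for that number, so their distance from the values of all genes is not a like comparison. The last class holds genes that many tissues transcribe from both copies. Of the 4 maternally expressed genes above background, Cdkn1c and Slc22a18 lay within 1 log2 unit of the limit, and at the stricter limit of the 99th percentile of background 2 of the 9 passed, beside 55.3% of all genes.

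The label was set beside markers of cell types. The marker lists were chosen with earlier results of these data known, so their counts are no independent check of the label. All 15 markers of ovarian surface epithelium and mesothelium were above background, with brightest probe sets between 663 and 20836. By number of probe sets the shares of all genes would give 8.96. Krt8, Krt18 and Krt19, keratins of simple epithelia, reached 4573, 3377 and 4897. Of markers of other cells, 9 of 10 for fibroblasts, 9 of 10 for smooth muscle and pericytes, 7 of 10 for macrophages, 5 of 8 for granulosa cells and 4 of 6 for theca and luteal cells were above background. The shares of all genes with the same numbers of probe sets would give 6.53, 6.84, 5.68, 4.94 and 3.97, so the last 2 counts were near that of the array. The highest levels in these lists were 29972, 23141, 2142, 1438 and 1229. Counts were 2 of 10 for endothelium, 3 of 8 for lymphocytes, 1 of 7 for neutrophils, 2 of 7 for oviduct and 1 of 4 for adipocytes, with highest levels of 1813, 70, 60, 107 and 58. Here the same shares would give 5.81, 4.94, 3.31, 4.16 and 2.31. None of 10 oocyte markers and none of 3 erythroid markers passed, beside 5.08 and 1.77 by these shares, with highest levels of 42 and 31. The adipocyte and erythroid lists had few measured genes, so their counts say little. The part of these cells in the levels of the imprinted genes was not tested, and in bulk RNA fewer cells of a type and less RNA per cell cannot be told apart.

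In the Peg3 domain the paternally expressed Peg3 was above background and its neighbours were not. Peg3, a zinc finger protein, had intensities of 1384, 361, 143, 9 and 8 on 5 probe sets. The 3 high values exceeded the limit and the 2 low ones lay under the background median. Usp29, a ubiquitin-specific protease, had 19 and 11. Peg3 and Usp29 are transcribed from the paternal copy, and 163 bases, printed above, separate their starts. Zim1, a zinc finger gene of the same domain transcribed from the maternal copy, had 15.

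The H19 and Kcnq1 domains hold growth regulators under 2 control regions. No probe set carried H19 alone. A probe set shared by H19, a maternally expressed noncoding RNA, and Mir675, the microRNA within it, had 1523 and thus lay above the limit, but the rule leaves it out. Igf2, the paternally expressed growth factor next to H19, had 65 and 12, 1 value on each side of the limit. Cdkn1c, the cyclin-dependent kinase inhibitor p57, had 48 on its only probe set, next to the limit of 46.5. Phlda2, which limits placental growth, had 25, and Ascl2, a transcription factor of the trophoblast, had 22, 12 and 10. Kcnq1ot1, the paternal noncoding RNA that silences these neighbours in cis, had 114, 101, 37, 19, 18 and 12, so 2 of its 6 probe sets passed. Slc22a18, a membrane transporter, had 70 and 36.

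The 4 members at the edges of these domains, whose imprinting is described mainly in placenta, were above background. Cd81, a tetraspanin found on most cells, had 12115. Dhcr7, the enzyme of the last step of cholesterol synthesis, had 510. Osbpl5, a lipid-binding protein of the oxysterol-binding family, had 587, and Tssc4 had 385. Each of these 4 genes had 1 probe set, so no second value stands beside it. Of all genes with 1 probe set 47.3% were above background. Of 7 further measured imprinted genes of these domains, taken from a list of genes that are no members, Igf2, Tspan32 and Nap1l4 had a probe set above the limit, with 65, 118 and 1090 on the brightest. Kcnq1, Tnfrsf22, Tnfrsf23 and Th had none, with at most 40, 38, 30 and 41.

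In the Prader-Willi and Angelman domain Ndn stood clear of the limit. Ndn, or necdin, a growth suppressor of the MAGE family, had 2092, 1766, 1204, 1154 and 806 on 5 probe sets and 13 on each of the 3 others. The latter equalled the background median. Magel2, a related MAGE gene beside it, had 25, and Mkrn3, a RING finger protein that restrains puberty, had 15. Both had a single probe set, and neither passed.

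Snrpn, the spliceosomal protein SmN of the same domain, had 56 on the only probe set of its own. Another 6 probe sets were shared with Snurf, the upstream reading frame on the same transcript, and ranged from 8 to 1018, with 4 of 6 above the limit. The probe set of Snrpn alone therefore did not give the highest value of that transcript. Ube3a, a ubiquitin ligase that is imprinted in neurons, had 1455, 157, 81, 30, 12 and 11, with 3 of 6 probe sets above background.

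**Figure D2:**
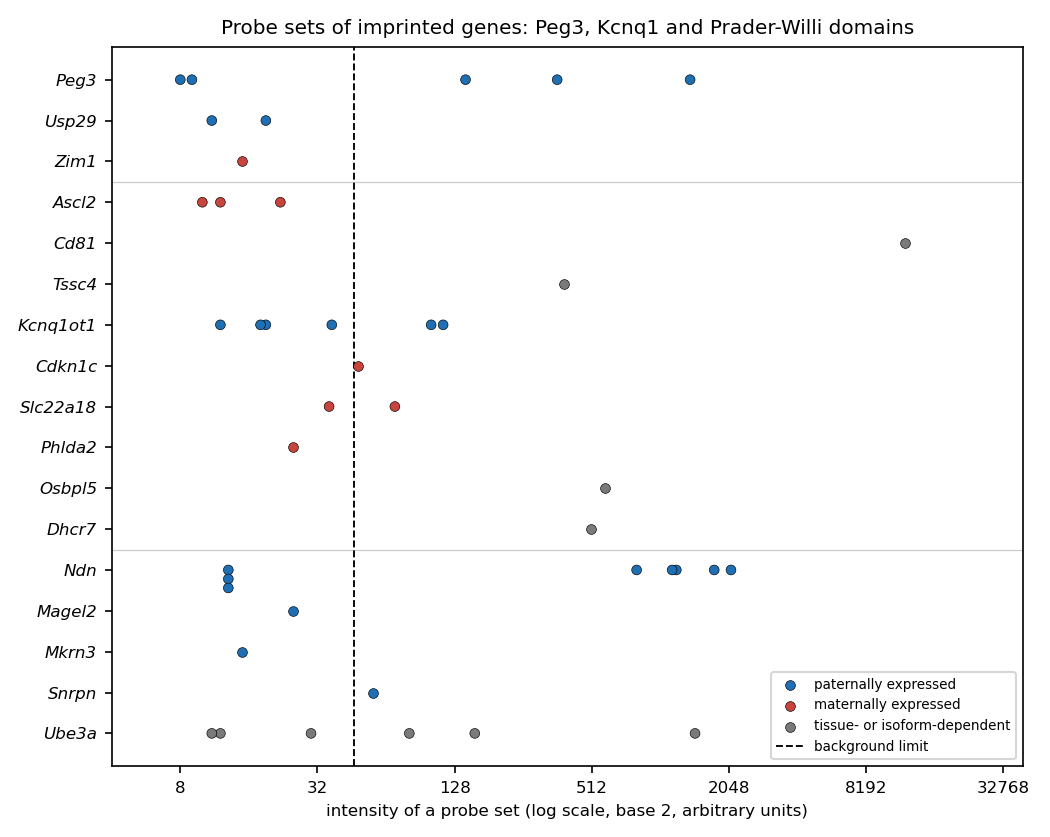
Intensity of each probe set (log scale) for the members of the Peg3 domain, the H19 and Kcnq1 domains and the Prader-Willi and Angelman domain, coloured by the parental copy that is transcribed. The dashed line is the background limit of 46.5. Peg3 and Ndn have probe sets far above it and others at background, while Usp29, Zim1, Magel2 and Mkrn3 lie below it.

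In the Dlk1 and Meg3 domain Dlk1 and the maternal noncoding RNAs Meg3 and Rian were above background, and the maternal noncoding RNA Mirg was not. Meg3 had 2117, 1822, 1527, 453, 384, 91, 65, 54, 48, 32 and 16, with 9 of 11 probe sets above the limit. It was the member with the most probe sets, and their standard deviation was 2.54 on the log2 scale. Rian, a maternal noncoding RNA that hosts small nucleolar RNAs, had 382, 118, 24 and 9, so 2 of 4 passed. Mirg, the microRNA host that follows it, had 41 and 34, both under the limit. Dlk1, a transmembrane protein related to Notch ligands, had 196 and 14. Rtl1, a gene derived from a retrotransposon, had no probe set under the rule.

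The probe sets of these RNAs report the host transcripts, and no microRNA was measured. The RefSeq table places 10 microRNA hairpins within Mirg, 3 within Rian and 1 within Meg3. The 19 mature sequences of Mirg have 18 different seeds. H19 and Mest hold 1 hairpin each, of miR-675 and miR-335. The mature sequences of miR-675 are shown because the H19 probe set carries its name, and those of miR-335 as the microRNA within Mest. Capitals mark the seed, bases 2 to 8.
mmu-miR-675-5p: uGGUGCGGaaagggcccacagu
mmu-miR-675-3p: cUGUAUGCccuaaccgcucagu
mmu-miR-335-5p: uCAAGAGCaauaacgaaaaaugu
mmu-miR-335-3p: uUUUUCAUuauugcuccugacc
The 4 seeds differ from each other.

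In the Peg10 domain 2 of 5 members (40%) were above background, Sgce and Ppp1r9a, beside 62.8% of all named genes. Sgce, epsilon-sarcoglycan, a membrane protein transcribed from the paternal copy, had 1545 and 14. Peg10, a retrotransposon-derived gene that is its paternally expressed neighbour, had 25 on a single probe set. Ppp1r9a, the actin-binding protein neurabin, had 1448, 1017, 161, 24 and 22. Asb4, a protein with ankyrin repeats and a SOCS box, had 19 and 16, and Calcr had 11. Casd1, Pon2 and Pon3, further genes of this stretch, had 1230, 1104 and 420 on their brightest probe sets. Tfpi2, a protease inhibitor, had 64, and Dlx5, a homeobox gene, had 11. Ppp1r9a, Sgce, Casd1, Pon2, Pon3 and Tfpi2 thus had a probe set above background, and Peg10, Asb4, Calcr and Dlx5 had none.

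Among paternally expressed genes at loci of their own, 4 of 6 (66.7%) were above background, near the 62.8% of all named genes. Mest, a membrane protein of the alpha/beta hydrolase family, had 557. Plagl1, the zinc finger factor Zac1 that arrests the cell cycle, had 455, 27 and 13. Its 1 high value came from a probe set whose identifier marks possible cross-hybridisation. Impact, which modulates translation under amino acid stress, had 982, 66 and 26. Nnat, a small membrane proteolipid called neuronatin, had 63, close to the limit. Nap1l5, of the nucleosome assembly protein family, had 33, and Rasgrf1, a Ras exchange factor of neurons, had 20, 19 and 9. Zrsr1, a splicing factor gene derived by retroposition, had no probe set under the rule.

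Grb10, Ddc, Gnas and Airn were all above background, beside 62.8% of all named genes. These 4 genes had several probe sets each, with which more genes pass. Of all genes with 3 probe sets, as for Grb10, 82.9% were above background, and with 2, as for Ddc, 71.8%. With 4 to 5, as for Gnas and Airn, 89% were. Grb10, an adaptor that restrains signalling by the insulin and IGF1 receptors, had 9499, 194 and 33. Ddc, aromatic amino acid decarboxylase, which lies beside Grb10, had 442 and 18. Gnas, the stimulatory G protein alpha subunit, had 14538, 30, 23, 12 and 12. Transcripts of Gnas start from several promoters that are imprinted differently, and the files do not say which start each probe set reports.

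Airn, the paternal noncoding RNA that silences Igf2r and its neighbours, had 132, 116, 91, 28 and 23, with 3 of 5 probe sets above background. Igf2r, the receptor that clears IGF2 and overlaps Airn, had 476 and 374. A probe set carrying both symbols had 17. Slc22a2, an organic cation transporter downstream, had 32, and Slc22a3, a related transporter, had no probe set under the rule. Both overlapping genes thus had probe sets of their own above background, and the one that carries both names was below it.

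**Figure D3:**
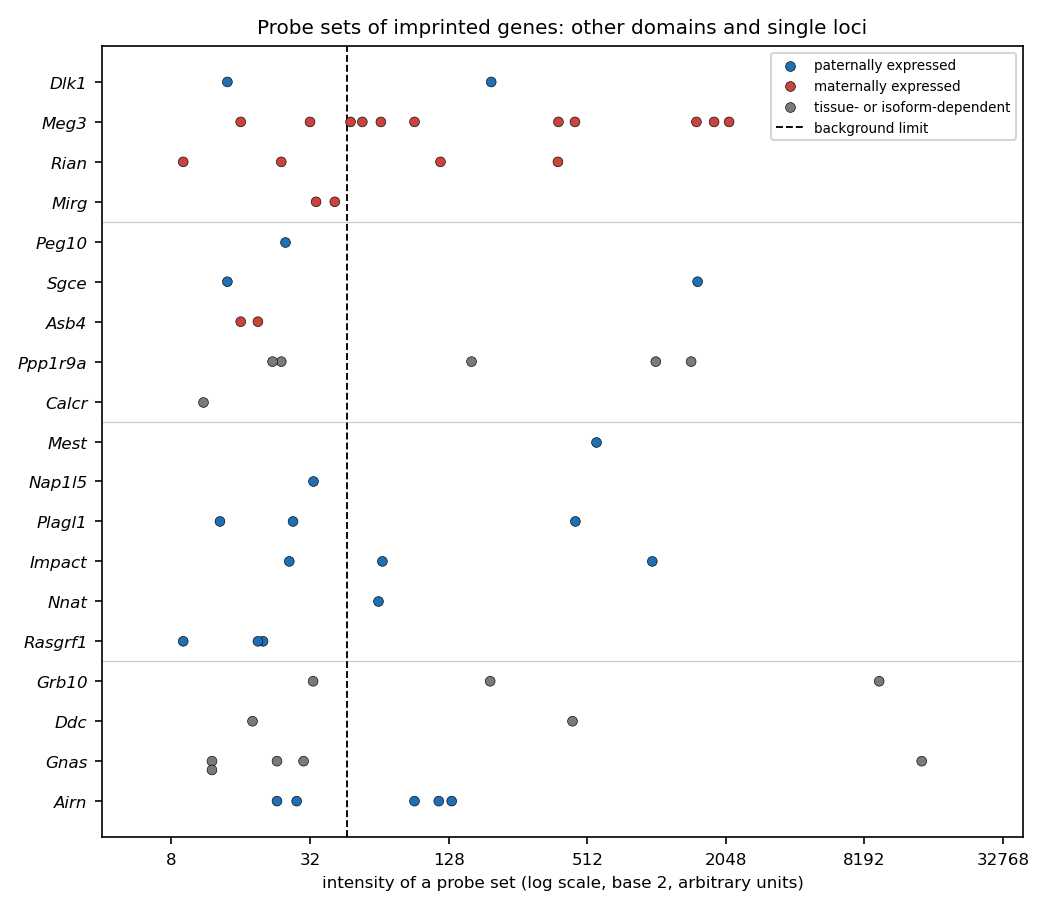
Intensity of each probe set (log scale) for the members of the Dlk1 and Meg3 domain, the Peg10 domain, the single-gene loci and the Grb10, Gnas and Airn domains, coloured by the parental copy that is transcribed. The dashed line is the background limit of 46.5. Gnas has 1 probe set at 14538 and its others under the limit, while the 11 probe sets of Meg3 run from 16 to 2117.

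Probe sets of the same imprinted gene often lay on both sides of the limit. This held for 16 of the 21 members with several probe sets, or 76.2%, beside 46.7% of all genes with several. By number of probe sets the shares of all genes would give 11.8 members with probe sets on both sides. None of the 21 had every probe set above background, and 5 had none. Of all genes with 2 probe sets 71.8% were above background, and 32.7% had probe sets on both sides. With 3 these shares were 82.9% and 53.7%, and with 4 to 5 they were 89% and 68.9%. With 6 or more they were 94.9% and 83.5%. In each pair the part of the first share beyond the second had every probe set above, as no member with several did. Genes outside the first share had none above. The median standard deviation between probe sets of a member was 2.67 on the log2 scale, beside 1.39 over all genes with several. These medians were not adjusted for the number of probe sets, which was higher among members. Of the 21 members 5 had 4 to 5 probe sets and 4 had 6 or more. Of the 9010 genes with several, 1556 and 393 did. For Slc22a18, Dlk1, Sgce, Plagl1 and Gnas the only probe set above background had an identifier that marks several transcripts of a gene or possible cross-hybridisation. The single probe sets of Tssc4, Osbpl5 and Nnat and all 3 of Grb10 were also marked in this way. Without such probe sets 15 of 32 members (46.9%) passed, beside 59.2% of all genes. By the lowest probe set of each gene 8 of 36 (22.2%) did, beside 39.7% of all genes. At the level of single probe sets, 48 of 99 were above background (48.5%), beside 55.1% of all named probe sets.

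**Figure D4:**
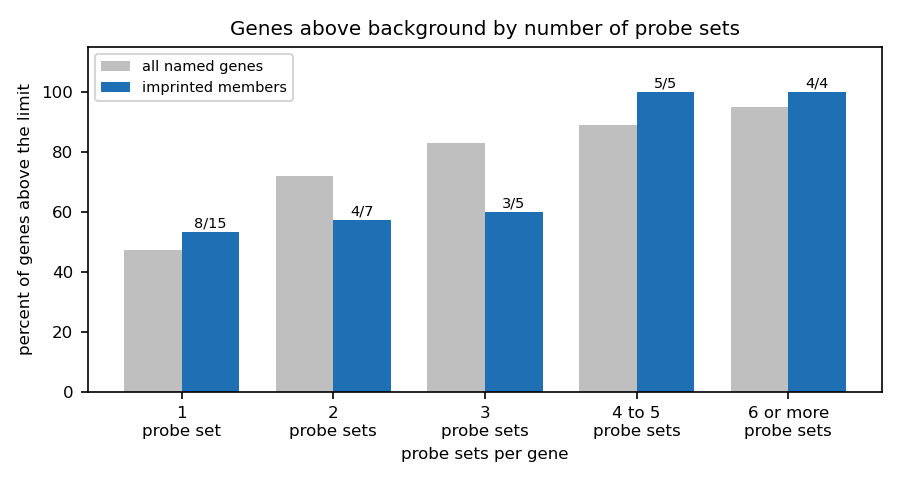
Percent of genes above background by number of probe sets per gene, for all named genes (grey) and imprinted members (blue, with the count above of the count measured). All genes rise from 47.3% with 1 probe set to 94.9% with 6 or more, and the members have 8 of 15 at 1 probe set and 4 of 4 at 6 or more.

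Promoter sequence was set beside the calls as a feature the choice of genes did not use. The RefSeq table held windows of 300 bases, 250 before to 50 after a start, for 34 of the 40 genes, with 52 windows. Cdkn1c, H19, Impact, Peg10, Rtl1 and Sgce were not in it. A window was called CpG-dense with a GC content over 50% and an observed over expected CpG ratio over 0.6. This held for 24 of the 52 member windows (46.2%) and for 33.3% of 32851 windows of all genes. Both shares count windows, several for some genes, and include genes not measured here. CpG per member window ranged from 0 for Rian to 48 for Ppp1r9a.

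Among measured genes with a window, 13 of 21 members above background (61.9%) and 7 of 11 members below it (63.6%) had a CpG-dense start. Over all measured genes the shares were 74.1% above and 26.3% below. Zim1, Ascl2, Phlda2, Mkrn3, Calcr, Nap1l5 and Rasgrf1 were the 7 members with such a start and no probe set above background. Conversely Peg3, Kcnq1ot1, Slc22a18, Snrpn, Dlk1, Rian, Ddc and Airn were above background with no window called CpG-dense. CpG outside these windows were not counted. These shares describe the table and have no test.

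The motif TGCCGC, which the imprint-protecting factor ZFP57 binds when methylated, was searched on both strands. It occurred in 12 of the 52 member windows (23.1%) and in 11.6% of all windows, again counted by window and not by gene. Among the members it was found for 8 of 21 above background and 3 of 11 below, beside 22.9% and 11.2% of all measured genes. Meg3 and Nap1l5 each hold 1 match in the stretches printed above. A match is a stretch of letters and not a bound site. Control regions outside these windows were not searched.

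Other imprinted genes were measured from a second list of 45 genes that are no members. Of 37 with a probe set 27 were above background, or 73%, beside 62.8% of all genes, and the shares by number of probe sets would give 23.4. The median was 8.17 on the log2 scale. Xist, the noncoding RNA of X inactivation, had 3 probe sets from 144 to 6070. H13, a signal peptide peptidase, reached 1646 and Commd1, the host gene of Zrsr1, 1162. Kcnq1, the potassium channel gene in whose locus Kcnq1ot1 starts, had 40, and Peg12, of the Prader-Willi region, had 9. Slc38a4, an amino acid transporter, had 63 and 44.

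Of 27 measured regulators of imprinting 22 were above background, or 81.5%, beside 62.8% of all genes. The shares of all genes with the same numbers of probe sets would give 18.7, and by the lowest probe set 12 passed. The median was 8.82 on the log2 scale. Dnmt1, which copies DNA methylation at replication, had 568, 470 and 154. Its partner Uhrf1 had 148 and 36. Trim28, the corepressor that ZFP57 recruits, had 3672 and 2166. Zfp57 had 112 and Zfp445, a second zinc finger protein that protects imprints, had 2364, 161 and 98. Ctcf, the insulator protein of the H19 control region, had 887 and 332. Dnmt3l, the cofactor that sets imprints in germ cells, had 21, and Dppa3, which protects methylation in the zygote, had 30, both below the limit.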

How the data were processed

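Biotin-labelled cRNA was hybridised to an Affymetrix array, per the labels' protocols. The deposited values are intensities, 1 for each of 45101 probe sets, from 6 to 32341 and all whole numbers. Affy and RMA, which corrects background, normalizes between arrays and summarises probes into sets, are named in the submitters' processing notes. The sources used here give no versions, no list of arrays normalized together and no step to whole linear numbers. By rounding a value can shift by 0.0154 on the log2 scale at the limit and by 0.0875 at the lowest member intensity of 8.

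Intensities were put on the log2 scale and named through the platform annotation, whose 34945 probe sets with 1 symbol gave 18193 genes. Left out were 932 probe sets with several symbols, 9160 with none and 64 controls. All 36 measured members matched the reference gene table of GRCm38.p6 by gene number. Every listed member with a value is named, and of the cell type lists the first 3 markers of the surface epithelium. Genes of the other lists were picked for their role in a domain or in imprinting. The members and lists were chosen with earlier results of these data known. The calling procedure was run on 50 simulated arrays, in each of which all probe sets of 200 genes were set far above the limit. All of these genes were called, which their setting made nearly certain. The simulation therefore does not bear on genes near the limit or with probe sets on both sides of it. Of simulated background genes with 1 probe set, 6.09% were called on average, and 2.03% to 10.7% over the draws. An array has no read depth, and 1 array leaves the precision of every level unknown. Alternatives were other limits, other background genes, another probe set per gene and the removal of marked probe sets. Figures were drawn with matplotlib 3.10.9, and values computed with pandas 2.3.3 and NumPy 2.4.6 under Python 3.11.15.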

Additional observations from a re-analysis of the deposited data

How the results depend on the processing

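The 5 other limits, from 25.5 to 84.8, left 20 members above background and 10 not above it throughout. Cdkn1c, Slc22a18, Snrpn, Mirg, Nap1l5 and Nnat changed side under at least 1. The number above ranged from 20 to 26 of 36, while the share of all genes ranged from 55.3% to 73.2%. Genes restricted to other organs, 6 of 24 above the limit, and Y-linked genes, 1 of 7 above, served as 2 of the other backgrounds. Their highest levels were 100 and 77. The brightest values of Cdkn1c, Snrpn, Nnat and Slc22a18, at 48, 56, 63 and 70, lay below both. With the limit at the 99th percentile 2 maternally expressed members passed in place of 4. With the mean of the probe sets 23 members passed, beside 57.6% of all genes, at a median of 5.81 on the log2 scale. With the lowest probe set 8 members did, of which 3 were paternally expressed, 1 maternally expressed and 4 of the dependent class. The median was then 4.31, 12 regulators passed, and 39.7% of all genes did. Without the probe sets whose identifiers mark several transcripts of a gene or possible cross-hybridisation, 15 of 32 members passed, beside 59.2% of all genes, at a median of 5.26. Of these 7 were paternally expressed and 5 of the dependent class, and 30 of 70 probe sets passed. Tssc4, Osbpl5, Nnat and Grb10 then had no probe set, and Slc22a18, Dlk1, Sgce, Plagl1 and Gnas were no longer above. With shared probe sets counted for H19, Snrpn and Airn, an alternative chosen after seeing the data, 25 of 37 members passed, at a median of 8.58. Shared probe sets were added for members only. The values of all genes thus stayed at 62.8% and a median of 7.06 and are no like comparison. H19 entered at 10.57 on the log2 scale, and Snrpn moved from 5.81 to 9.99. All measured surface epithelium markers were above under the 8 alternatives run on them, which leave out the last. No paired analysis was possible because there is 1 sample.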
